A study of Mus musculus with 11 samples.

Results

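Ccr9, Itga4, Itgae, Itgb7 and Itgb1 encode the chemokine receptor and the integrin chains with which T cells reach and settle in the gut, and their RNA was followed here in T cells stimulated by dendritic cells of different organs. The members were the probe sets whose only gene symbol in the platform annotation is one of these 5 genes. There were 14 such probe sets, 6 for Itgb1, 3 each for Ccr9 and Itga4, and 1 each for Itgae and Itgb7, of 22690 on the array; the genes are 5 of 12393 tested. Every culture held T cells of the mouse strain B10.BR stimulated for 4 days with dendritic cells of C57BL/6 mice, a strain with other major histocompatibility genes, and RNA of the T cells was measured on single-colour arrays. The dendritic cells came from liver (n = 3), from the organs labelled MLN (n = 3) and PLN (n = 3), abbreviations that are customary for mesenteric and peripheral lymph node but are not spelled out in the labels, or from spleen (n = 2). Arrays carry replicate numbers 2, 3 and 4, and spleen has no number 2. T cells without dendritic cells were not analysed here, so organs are compared with each other; the labels give neither the age of the mice nor the purity of the T cells after culture. Whether arrays of an organ stem from separate cultures or mice is not said, and the tests therefore rest on the spread from array to array, possibly a technical one.

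Lymphocytes leave the blood where their integrins and chemokine receptors find a partner on the vessel wall. The Itga4 chain pairs with the Itgb7 chain to bind MAdCAM-1 on gut venules, or with the Itgb1 chain to bind VCAM-1 and fibronectin. The Itgae chain, also called CD103, pairs only with the Itgb7 chain and holds T cells at the epithelium through E-cadherin. Ccr9 is the receptor of the small-intestinal chemokine CCL25. Dendritic cells of gut-draining lymph nodes make retinoic acid, which is known to raise Ccr9 and Itga4 in T cells, while TGF-beta raises Itgae.

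The 250 bases upstream of the annotated starts of Itga4 and Ccr9 are given here because these genes are the pair that retinoic acid is known to raise together, and because their RNA varied along different lines in these cultures. Both are from the RefSeq annotation of GRCm38.p6, on the plus strand and read 5′ to 3′. Itga4 lies at chr2:79255176-79255425 and Ccr9 at chr9:123766961-123767210, and capitals mark motif matches on either strand.
Itga4: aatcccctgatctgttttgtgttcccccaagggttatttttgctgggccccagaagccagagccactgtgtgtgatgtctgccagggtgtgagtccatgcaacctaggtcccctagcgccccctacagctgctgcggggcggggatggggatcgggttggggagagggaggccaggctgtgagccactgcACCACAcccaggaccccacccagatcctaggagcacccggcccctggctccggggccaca
Ccr9: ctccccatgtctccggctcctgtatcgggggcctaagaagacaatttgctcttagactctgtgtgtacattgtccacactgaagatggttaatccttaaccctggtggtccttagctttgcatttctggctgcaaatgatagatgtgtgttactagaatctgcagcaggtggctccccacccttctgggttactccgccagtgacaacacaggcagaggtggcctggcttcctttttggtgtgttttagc
The motifs searched were AGGTCA, the half-site of retinoid receptors, TGTGGT for RUNX factors, TGACTCA for AP-1 and TATAAA, the TATA box; none of these overlaps another in the windows shown. The match in Itga4 is TGTGGT on the minus strand, whose first base on the printed strand lies 60 bases before the start, and the Ccr9 window holds no match. Of 32851 windows of 250 bases, 14.0% hold AGGTCA, 14.0% TGTGGT, 4.46% TGACTCA and 12.4% TATAAA. A match is a description of letters only. The windows differ in base composition, with 64% G and C for Itga4 and 50.4% for Ccr9.

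The cultures held abundant T cell RNA. Of 12 T cell markers 11 were measured and lay in the upper 60% of levels, and their summed intensities ran from 32520 to 44050 over the arrays. RNA of dendritic cell marker genes was also present: 11 of 12 markers were measured, 9 of them in the upper 60%. Their sum ran from 9300 to 10550 on arrays numbered 3, and from 4851 to 6626 on those numbered 2 or 4. By organ it ran from 5284 to 9300 in liver, 6343 to 10060 in MLN, 6468 to 9692 in PLN and 4851 to 10550 in spleen cultures. The dendritic cell marker Itgax stood at the 52.6th percentile of levels over all probe sets. Flt3, Zbtb46 and Xcr1 stood lower, at percentiles 48.2, 39.8 and 29.7. The brightest of the list were Ccl22 and Cd74, at percentiles 91.3 and 91. B cell markers were read too: 6 of 7 were measured, 5 of them in the upper 60%, and their sum ran from 9563 to 11250 over the arrays. Ighm was the brightest of these, at percentile 99.5. Of 5 mast cell markers 5 were measured, with only Kit in the upper 60%, at percentile 73.2. The mast cell sum ran from 573.1 to 1298. Which cells held the RNA of these marker genes was not tested. Some dendritic cells are known to carry Itgae, Itgb7 or Ccr9, so values below are those of the culture. In such bulk samples fewer cells of a type and less RNA per cell cannot be told apart.

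Itga4 RNA was highest in the cultures with MLN dendritic cells. The brighter probe set, 1450155_at, read intensities of 190, 233.5 and 223.3 in MLN cultures (replicates 2, 3 and 4 throughout). It read 90.4, 93.5 and 119.3 in liver cultures, 147.3, 93.6 and 70.2 in PLN cultures, and 60.3 and 123.7 in spleen cultures (replicates 3 and 4). The 3 MLN arrays did not overlap with the other 8, a pattern shown by 0.51% of the 20380 probe sets tested. On the log2(intensity + 16) scale after quantile normalization, used for every level and difference below, the means were 7.88 ± 0.15 in MLN, 6.88 ± 0.26 in liver, 6.84 ± 0.57 in PLN (SD, n = 3 for each), with 6.56 ± 0.57 for spleen (SD, n = 2). In that order liver, PLN and spleen lay within each other's spread. MLN stood 1.12 above the mean of the other organs (SE 0.26, 95% interval 0.55 to 1.69), and the difference did not pass over all probe sets (limma, adjusted p = 0.461; unadjusted 0.00126).

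The other Itga4 probe sets also had their highest mean in MLN cultures, with smaller differences. Probe set 1421194_at read 164.7, 130.2 and 97.2 in MLN, 104.9, 94.2 and 97.8 in liver, 82.6, 107.4 and 62.4 in PLN, and 85.6 and 106.8 in spleen cultures. Here MLN replicate 4 lay among the arrays of the other organs. The difference of MLN was 0.51 (SE 0.20; limma, adjusted p = 0.999). The dim probe set 1427615_at, at the 7.58th percentile, read between 1.8 and 49.3, with its highest value in MLN replicate 2, and differed by 0.67 (SE 0.31; adjusted p = 0.999). Over the 11 arrays the first probe set correlated at r = 0.726 with 1421194_at and at 0.456 with 1427615_at, a description in which the points share arrays and number.

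Within replicate numbers 2 of the 3 Itga4 probe sets were higher in MLN throughout. For 1450155_at, MLN exceeded liver by 1.02, 1.20 and 0.81 in numbers 2, 3 and 4, PLN by 0.30, 1.13 and 1.71, and spleen by 1.81 and 1.01 in numbers 3 and 4. For 1421194_at the same 8 differences lay between 0.05, against liver in number 4, and 0.85, against PLN in number 4. Both probe sets were thus higher in MLN in 8 of 8 comparisons within a number, as were 3.29% of all probe sets. The dim 1427615_at was higher in 5 of 8, with a difference of MLN from PLN of -0.05 and -0.11 in numbers 3 and 4 and from liver of -0.39 in number 4. With the number as a term in the model (the blocked fit) the difference of 1450155_at was 1.11 (SE 0.26; limma, adjusted p = 0.164). A restriction to 1 probe set per gene in the upper 60% was chosen after earlier results were seen. There the blocked limma adjusted p was 0.0495, and 0.0502 when control probe sets were kept in the quantile step. That value ran from 0.0182 to 0.279 as single arrays were left out; it passed without PLN replicate 2, PLN replicate 4 or Spleen replicate 4 and did not without any of the other 8.

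**Figure D1:**
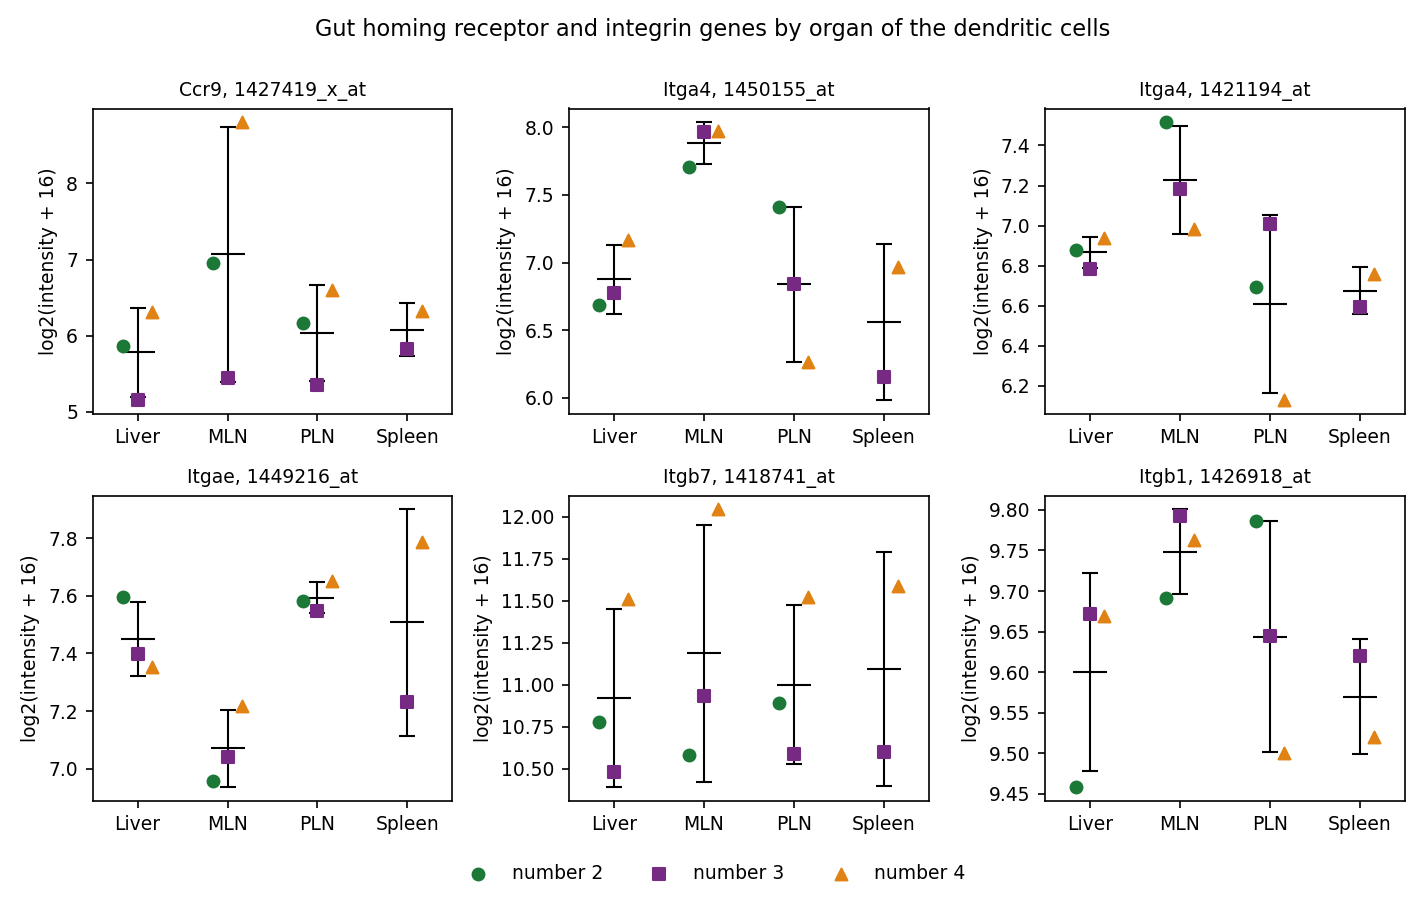
Level of 6 probe sets, as quantile normalized log2(intensity + 16) on the vertical axis, by organ of the dendritic cells on the horizontal axis; each point is an array, its shape and colour give the replicate number, and bars give mean and SD (n = 3, or 2 for spleen). The MLN arrays stand above the other 8 for Itga4 1450155_at and below them for Itgae, while for Itgb7 the arrays numbered 4 stand above the other 7 in every organ.

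Itgae ran the other way and was lowest in MLN cultures. Its probe set 1449216_at read 106.8, 117.1 and 118.9 in MLN, 183.6, 153.1 and 140.1 in liver, 167.1, 164.9 and 194.7 in PLN, and 139.2 and 218.1 in spleen cultures. All 3 MLN arrays lay below the other 8, as did those of 0.623% of all probe sets, and MLN was lower in 8 of 8 comparisons within a number, as for 3.31% of all. Mean levels were 7.59 ± 0.05 in PLN, 7.51 ± 0.39 in spleen (n = 2), 7.45 ± 0.13 in liver and 7.07 ± 0.13 in MLN (SD, n = 3 otherwise). PLN, spleen and liver overlapped. MLN differed from the mean of the others by -0.45 (SE 0.15, 95% interval -0.79 to -0.10), which did not pass (limma, adjusted p = 0.999; blocked 0.307).

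Among markers of T cells, natural killer cells and macrophages, Cd2 and Klrk1 were lower in MLN cultures in the blocked fit. Of the 11 measured T cell markers 10 lay below 0 in MLN against the mean of the other organs, with a median of -0.10. The marker above 0 was Cd8a, at 0.20 (limma, adjusted p = 0.999). Against PLN alone 6 of the 11 lay above 0. Cd2, an adhesion molecule of T and natural killer cells, stood at -0.52 (limma, adjusted p = 0.461) and passed in the blocked fit (-0.52, adjusted p = 0.0317). The summed intensity of 4 measured natural killer cell markers of 5 was lowest on the MLN array of each number. It ran from 1407 to 2041 in MLN, 2404 to 3132 in liver, 1868 to 2358 in PLN and 1813 to 2590 in spleen cultures. The sum mainly followed Klrk1 and Eomes, at mean levels of 10.29 and 9.58. Ncr1 and Klra8 were far dimmer, at 6.21 and 5.68. In that list Klrk1, an activating receptor that CD8 T cells also carry, stood at -0.76 (limma, adjusted p = 0.626) and passed in the blocked fit (-0.80, adjusted p = 0.0285; against liver -1.18, 0.00556). Eomes stood at -0.26, Ncr1 at -0.08 and Klra8 at 0.25, none passing in either fit, and Ncr1 was at the 31.7th percentile. Of 8 macrophage and monocyte markers 4 lay above 0, and the median was -0.08. Those above 0, Clec4f, Mrc1, Cd68 and Adgre1, stood between 0.10 and 0.24. Below 0 were Cd14 at -1.12 (limma, adjusted p = 0.609, blocked 0.131), Lyz2 at -0.60, and Csf1r and Ctss at -0.27 each. None of the 8 passed in either fit. Their summed intensity in MLN was 2688, 3205 and 2383 in numbers 2, 3 and 4, the lowest array in numbers 3 and 4 but not in 2. The part of these cells in the Itga4 and Itgae values was not tested.

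Itgb7, the partner of both alpha chains, differed with the replicate number, and no difference between organs passed. Probe set 1418741_at stood at the 93.4th percentile. On arrays numbered 4 it read 2975.1 in liver, 4343.8 in MLN, 2850.3 in PLN and 2953.4 in spleen cultures. On arrays numbered 2 or 3 it read between 1426.6 and 1939.3, so the groups did not overlap, and arrays numbered 4 stood above the other 7 in 5.54% of all probe sets. With organ in the model, number 4 exceeded number 3 by 1.01 and number 2 by 0.94 (limma F-test over the numbers, adjusted p = 0.000634). Such differences were common, and 23.9% of all probe sets passed that test. Number accounted for 87.1% of the sum of squares of Itgb7 and organ for 4.36%.

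By organ, Itgb7 had means of 11.19 ± 0.76 in MLN, 11.002 ± 0.48 in PLN, 10.92 ± 0.53 in liver (SD, n = 3) and 11.09 ± 0.70 in spleen (SD, n = 2), all within each other's spread. MLN differed by 0.18 from the mean of the others, with a 95% interval of -0.59 to 0.95 (limma, adjusted p = 0.999). In the blocked fit the same difference was 0.23 (SE 0.12; adjusted p = 0.574). MLN was the highest array in numbers 3 and 4 and the lowest in number 2, where it read 1506.6 against 1716.9 in liver and 1895.5 in PLN cultures.

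Ccr9 read low intensities in these cultures and was highest, for each of its 3 probe sets, on the array MLN replicate 4. Its brightest probe set, 1427419_x_at, at the 32.4th percentile, read 417.2 there, and 106.3 and 28 in MLN replicates 2 and 3. In liver cultures it read 43.6, 18.4 and 57, in PLN cultures 52.6, 22.5 and 91.4, and in spleen cultures 44.7 and 76.7. Probe sets 1421920_a_at and 1421919_a_at were also highest on MLN replicate 4, at 160.4 and 121, and otherwise read at most 55.6 and 75.7. The 3 probe sets went together over the arrays, with r = 0.865 and 0.880 against the brightest. The suffix x_at marks a probe set of the platform with probes that can match other sequences.

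The Ccr9 levels of MLN cultures spread widely, and no difference between organs passed. The means of 1427419_x_at were 7.07 ± 1.68 in MLN, 6.04 ± 0.63 in PLN and 5.78 ± 0.58 in liver (SD, n = 3), and 6.08 ± 0.35 in spleen (SD, n = 2). MLN differed by 1.10 (SE 0.58, 95% interval -0.18 to 2.38; limma, adjusted p = 0.999). With the number as a term the difference was 1.09 (SE 0.37; adjusted p = 0.339). Within numbers MLN was higher in 7 of 8 comparisons, the exception being spleen in number 3. Each of the other 2 probe sets was higher in 4 of 8. Without the block 1421920_a_at differed in MLN by 0.475 and 1421919_a_at by 0.35 (limma, adjusted p = 0.999 each).

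In 2 of its 3 probe sets Ccr9 also differed with the number. For 1427419_x_at number 4 exceeded number 3 by 1.56, and for 1421919_a_at by 1.49 (limma F-test over the numbers, adjusted p = 0.0381 and 0.0157). Probe set 1421920_a_at did not pass (0.356). Number 3, the lowest for each of the 3 probe sets on average, was also the number with the largest sum of dendritic cell markers, and the T cell sum was 38610 to 44050 in number 4 against 32520 to 38380 in the others. The part of cell composition in these values was not tested. Plasmacytoid dendritic cells are known to carry Ccr9, and 4 of 5 of their markers were measured, a list added after the Ccr9 values were seen. Their sum ran from 2423 to 3308 over all arrays. In MLN it was 3299, 3308 and 2878 in numbers 2, 3 and 4, the highest array in numbers 2 and 3 but not in 4. In MLN against the other organs 4 of the 4 lay above 0, with a median of 0.20, and 0 passed (limma). The brightest were Irf8 and Bst2, at percentiles 92 and 81.3. The part of these cells in the Ccr9 values was not tested. The call of 1427419_x_at held without MLN replicate 4 (0.0326), Spleen replicate 3 or Spleen replicate 4, and was lost without any other array. That of 1421919_a_at was lost without PLN replicate 3 (0.0593), which left Itgb7 (0.00277) as the sole probe set passing, and stood at the threshold of 0.05 without MLN replicate 3.

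Itgb1 gave no common direction over its 6 probe sets. The bright pair, 1426918_at and 1452545_a_at, read 702.4 to 861.1 and 698.5 to 952.1 over the 11 arrays, the narrowest relative ranges among the members. Mean levels of 1426918_at were 9.75 ± 0.05 in MLN, 9.64 ± 0.14 in PLN, 9.60 ± 0.12 in liver (SD, n = 3) and 9.57 ± 0.07 in spleen (SD, n = 2). MLN differed by 0.14 (95% interval -0.06 to 0.35) in this probe set and by -0.04 (95% interval -0.25 to 0.18) in 1452545_a_at, neither passing (limma, adjusted p = 0.999 each). The 2 probe sets correlated at r = 0.224 over the arrays.

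Among the dimmer Itgb1 probe sets, 1427771_x_at read 98.9, 99.4 and 99 in liver cultures. The other 8 arrays read between 45.8 and 88, so the liver arrays stood above the rest, as in 0.658% of all probe sets; this was noticed after the values were seen. Mean levels were 6.87 ± 0.07 in liver, 6.40 ± 0.55 in PLN and 6.30 ± 0.15 in MLN (SD, n = 3), and 6.26 ± 0.10 in spleen (SD, n = 2). The difference between MLN and liver was -0.57 (SE 0.26; limma, adjusted p = 1). The remaining 3 probe sets, 1438119_at, 1426920_x_at and 1426919_at, lay below the 14th percentile with intensities between 1.9 and 37.5. They differed in MLN by 0.57, -0.50 and -0.07 (limma, adjusted p = 0.999 each).

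No member passed a comparison of organs over all probe sets. In limma's F-test over the 4 organs 0 of 14 passed, where 0.00491% of all probe sets passed, and 1 had an unadjusted p under 0.05, where 3.48% of all did. For MLN against the mean of the other organs 0 of 14 passed (0.0343% of all). The 4 at an unadjusted p under 0.05 (4.16% of all) were 1450155_at and 1421194_at of Itga4, Itgae and 1438119_at of Itgb1. For MLN minus liver 0 of 14 passed (0.0245% of all), with 1 at an unadjusted p under 0.05 (4.85%). In each of the other 5 pairs 0 of 14 and 0% of all passed. Members at an unadjusted p under 0.05 numbered 3 for MLN minus PLN (2.55% of all), 3 for MLN minus spleen (4.25%), 0 for liver minus PLN (3.98%), 1 for liver minus spleen (2.95%) and 0 for PLN minus spleen (2.76%).

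With the blocked fit 0 of 14 also passed in each of these comparisons. All probe sets passed in shares of 0.211% in the F-test, 0.25% for MLN against the others, 0.599% for MLN minus liver, 0.0393% for MLN minus PLN, 0.0294% for MLN minus spleen, 0.0442% for liver minus PLN and 0% for the 2 remaining pairs. At an unadjusted p under 0.05 the blocked fit had 1 member in the F-test (10.6% of all) and 4 for MLN against the others (9.8%), which were Ccr9 1427419_x_at, 1450155_at and 1421194_at of Itga4, and Itgae. In the pairs it had 2 for MLN minus liver (11.5%), 4 for MLN minus PLN (5.48%) and 3 for MLN minus spleen (10.3%). It had 1 for liver minus PLN (10.5%), 1 for liver minus spleen (7.14%) and 0 for PLN minus spleen (6.61%). Over the replicate numbers 3 of 14 passed (23.9% of all), 2 of Ccr9 and that of Itgb7; the same 3 had an unadjusted p under 0.05 (35.6% of all).

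**Figure D2:**
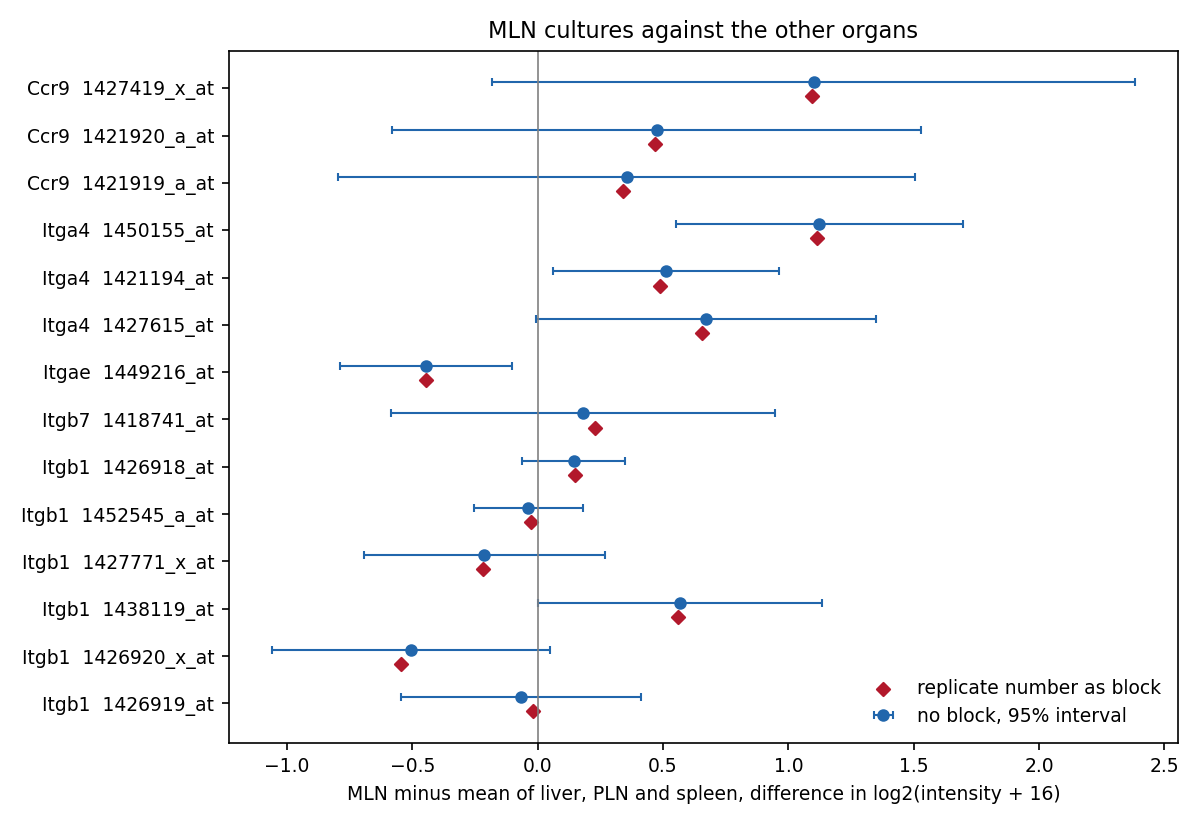
Difference of MLN cultures from the mean of liver, PLN and spleen cultures, in log2(intensity + 16), for each of the 14 probe sets; circles with bars give the fit without block and its 95% interval, diamonds the fit with the replicate number as block. The intervals of 1450155_at and 1421194_at of Itga4 and 1438119_at of Itgb1 lie above 0 and that of Itgae below it, before adjustment over the 20380 probe sets tested.

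Between the pairs of organs the interval of the brighter Itga4 probe set was clear of 0 where MLN was involved, and those of the other 2 mostly were not. For 1450155_at MLN exceeded liver by 1.01 (95% interval 0.32 to 1.69), PLN by 1.04 (0.36 to 1.73) and spleen by 1.32 (0.56 to 2.09), with limma adjusted p = 0.691, 1 and 0.851. Liver and PLN differed by 0.04 (-0.65 to 0.72). For 1421194_at MLN differed from liver by 0.36 (95% interval -0.18 to 0.90), from PLN by 0.62 (0.08 to 1.16) and from spleen by 0.55 (-0.05 to 1.16). The dim 1427615_at differed by 0.69 (-0.13 to 1.501), 0.53 (-0.29 to 1.34) and 0.80 (-0.11 to 1.71) in the same order, and all of these had a limma adjusted p = 1. For Itgae MLN differed from PLN by -0.52 (95% interval -0.93 to -0.11), from spleen by -0.44 (-0.89 to 0.02) and from liver by -0.38 (-0.79 to 0.03), with limma adjusted p = 1 each. These pairs share the MLN arrays. All intervals given here are from the fit without block, which leaves out the replicate number.

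The members differed in how much of their variation went with the organ. In sums of squares taken first for number and then for organ, organ held 67.4% for Itga4 1450155_at, 50.4% for 1421194_at and 67.0% for Itgae. At least as large an organ share was found in 2.63%, 9.90% and 2.74% of probe sets in the upper 60% by level, whose median shares were 18.6% for organ and 50% for number. Number held 4.85%, 15.3% and 11.6% for these 3, against 87.1% for Itgb7, a share that 7.20% of those probe sets reached. The shares of the 3 Ccr9 probe sets differed. Number held 48.6% and organ 28.1% for 1427419_x_at, 27.7% and 13.1% for 1421920_a_at, and 74.1% and 5.10% for 1421919_a_at. At least as large a number share was found in 51.6%, 72.8% and 22.7% of the probe sets in the upper 60%. The Ccr9 probe sets themselves lie below that part. The 2 bright Itgb1 probe sets had 39.2% and 44.9% for organ and 7.28% and 24.1% for number.

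**Figure D3:**
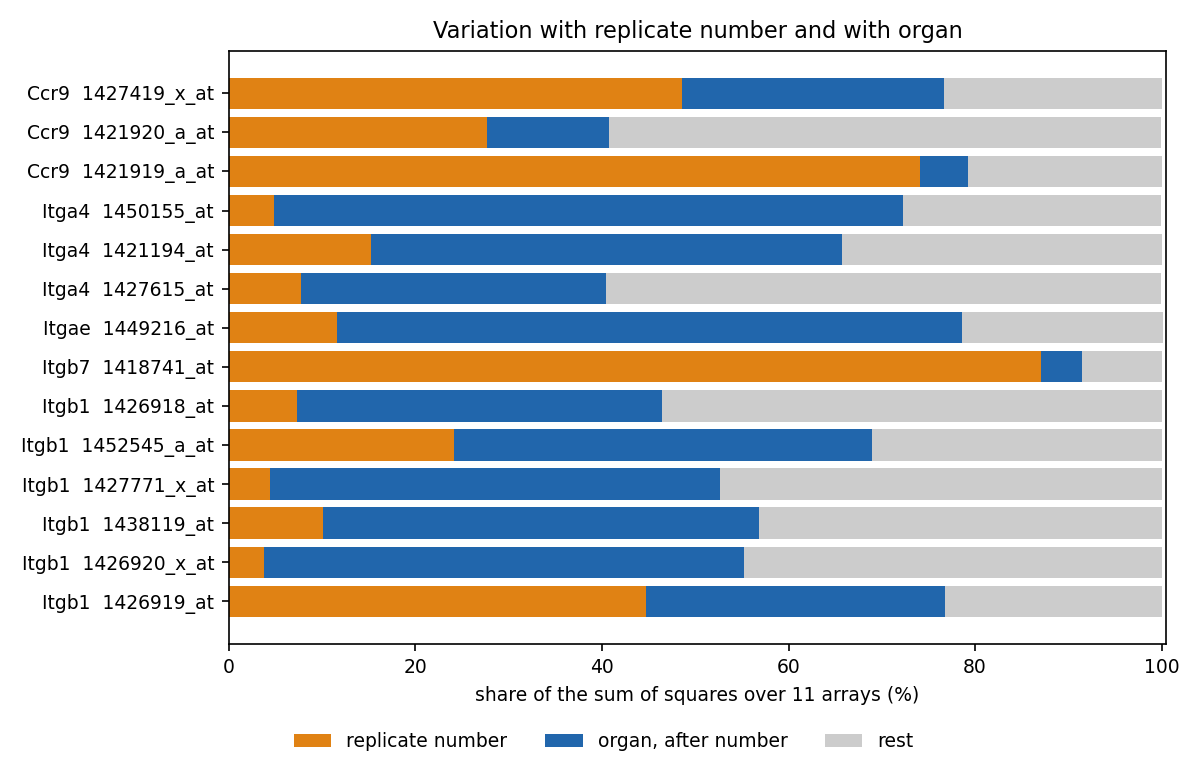
Share of the sum of squares over the 11 arrays, in percent, that goes with the replicate number (orange), with the organ after the number (blue) and with neither (grey), for each probe set of the 5 genes. Orange fills 87.1% of the Itgb7 bar and blue 67.4% of that of Itga4 1450155_at.

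Other genes of lymphocyte adhesion and homing, each taken at its brightest probe set, did not pass between MLN and the other organs. Among 18 measured integrin chains beyond the members, 0 passed in either direction (limma, 2 at an unadjusted p under 0.05), 9 lay above 0, and the median difference was -0.02 against 0.00 over all probe sets. Itga3, a laminin receptor chain, stood at -0.90 (SE 0.36), the leukocyte chain Itgb2l at -0.86 (SE 0.37) and Itgav, a chain of vitronectin receptors, at 0.27 (SE 0.14), with adjusted p = 0.999 each. Itga3 was lower in MLN in 8 of 8 comparisons within a number, as were 3.31% of all probe sets, and Itgav higher in 7 of 8. Of 20 genes of integrin activation and adhesion 0 passed (0 at an unadjusted p under 0.05), 5 lay above 0, and the median was -0.05. Fermt2, a kindlin, stood at 0.36, the focal adhesion gene Zyx at -0.34 and the small GTPase gene Rap1a at -0.08.

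Of the ligands 5 of 6 were measured at low levels and 0 passed (0 at an unadjusted p under 0.05). Cdh1, which encodes the E-cadherin that Itgae with Itgb7 binds, stood at 0.53 (SE 0.42; limma, adjusted p = 0.999). It was higher in MLN in 8 of 8 comparisons within a number, as were 3.29% of all probe sets. Cdh1 read 82.7, 92.3 and 192.5 in MLN, 40.8, 55 and 157 in liver, 41.7, 52.1 and 147.9 in PLN, and 66.4 and 130.3 in spleen cultures. Its arrays numbered 4 stood above the other 7, as in 5.54% of all probe sets. Vcam1 stood at -0.36 and Madcam1 at -0.18. Of 9 measured homing receptors 0 passed (2 at an unadjusted p under 0.05), 3 lay above 0 and the median was -0.12. Cd44, a hyaluronan receptor, stood at -0.33 (SE 0.12), the skin and type 2 chemokine receptor Ccr4 at 0.50 (SE 0.21) and the type 1 chemokine receptor Cxcr3 at -0.29 (SE 0.21), with adjusted p = 0.999 each.

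Among 18 regulators of gut homing genes 0 passed (2 at an unadjusted p under 0.05), 7 lay above 0 and the median was -0.03. The smallest p was that of Aldh1a2, which encodes the enzyme that makes retinoic acid in dendritic cells. It read 15.4, 48.2 and 15.1 in MLN cultures, and 1.7 to 9.3 on the 8 other arrays, with no overlap between the groups, as in 0.51% of all probe sets. All of these values are near the bottom of the scale, with the mean at the 7.10th percentile. The difference was 0.97 (SE 0.22; limma, adjusted p = 0.451; blocked 0.142). MLN was higher in 8 of 8 comparisons within a number, as for 3.29% of all probe sets. The retinoid receptor genes Rarg and Rxra stood at -0.45 (SE 0.19) and -0.35 (SE 0.19), with adjusted p = 0.999 each.

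**Figure D4:**
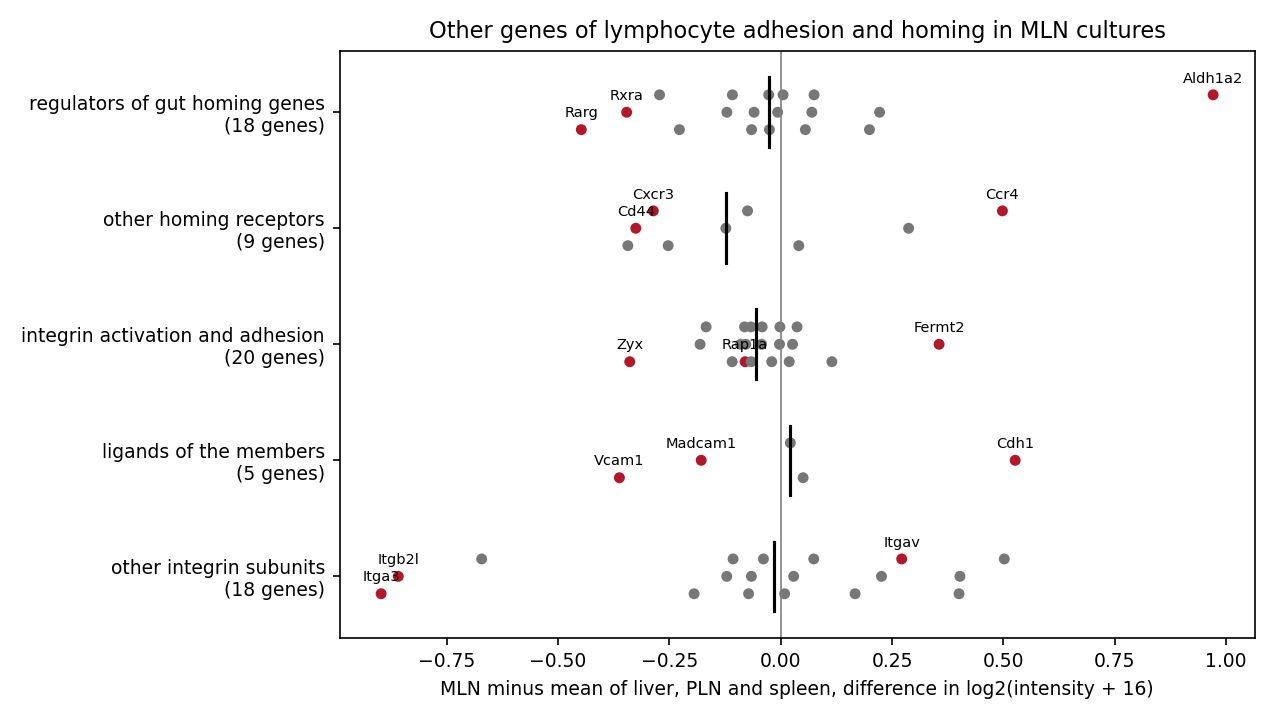
Difference of MLN cultures from the mean of the other organs, in log2(intensity + 16), for the genes of 5 lists; each point is a gene at its brightest probe set, red points are the 3 genes of smallest p in their list, and black bars are list medians. The medians lie between -0.12 and 0.02, and Aldh1a2 stands at 0.97.

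The genes most like each member were ranked by Pearson correlation over the 11 arrays after the number effects were removed, among 7432 genes in the upper 60%; points share arrays, and with so few arrays and so many genes high values arise at the top of any such ranking. For Itga4 they were Nkain1 (r = 0.945), Rasa3 (0.926) and Limd1 (0.922), and for Itgae they were Asrgl1 (0.962), Ola1 (0.957) and Sema4f (0.935). For Itgb7 they were Zbp1 (0.918), Rnasek (0.906) and Cnp (0.899), for Ccr9 they were Gstp1 (0.927), Pgp (0.915) and Ada (0.913), and for Itgb1 they were Ino80c (0.971), Nup50 (0.942) and Socs6 (0.937). Without removing the number, 6 of the 10 closest genes were shared for Itgae, 5 for Itgb1, 3 for Ccr9 and 1 each for Itga4 and Itgb7.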

How the data were processed

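RNA of the cultures was measured on 11 single-colour mouse arrays. The authors deposited 1 linear intensity per probe set and array; from the values, they were scaled to a mean of about 500.2 after trimming 2% at each end. Software and probe summarisation were not given in the sources used here, and detection calls were not used here.

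Of 22690 probe sets 64 controls were left out, and the annotation gave 1 symbol for 20393, several for 691 and none for 1606. The log2(intensity + 16) values were quantile normalized, since array medians spanned 0.22, and 20380 single-gene probe sets were fitted with limma 3.58.1 in R 4.3.3 (lmFit, eBayes with trend, Benjamini-Hochberg at 0.05), with no filter. All 11 arrays entered 1 fit of 4 organ means with 7 residual degrees of freedom; the blocked fit has 5. Differences understate changes of dim probe sets. The script was tested on simulated data.

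The replicate numbers pair the arrays: after organ means were removed, the 15 same-number pairs correlated at 0.367 to 0.704 and the 30 pairs of other number and organ at -0.662 to 0.0793. What is left within an organ sums to 0, so the second range partly follows from the first and adds no separate evidence. Precision is limited by having 11 arrays, whose median intensities ran from 144.3 to 170.4. No p is adjusted over the members alone.

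Members, lists and tests were chosen with earlier results of these data known. From each list the 3 genes of smallest p for MLN are named, at their brightest probe set, and for each member the 3 most correlated genes. Alternatives were other scalings, pseudocounts of 1 and 64, filters, blocks by number and leaving out each array. Proteins were not used here, and a gene or probe set with several symbols was not analysed here.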

Additional observations from a re-analysis of the deposited data

How the results depend on the processing

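The replicate numbers pair the arrays, and with the replicate block 0 of 14 probe sets passed in each comparison of organs, as without it and with number as a random block. The count for MLN against the other organs was 1, Itga4, with the replicate block and 1 probe set per gene in the upper 60%, a setting chosen after earlier results were seen. There the counts for that comparison and for MLN minus liver ran from 0 to 1 as single arrays were left out, the gene being Itgb7 without MLN replicate 2 (0.44 and 0.50; adjusted p = 0.0203 and 0.0113) and Itga4 otherwise. For the replicate numbers the count of 3 was 1 in the upper 60% and with 1 probe set per gene, which leave out Ccr9, and ran from 1 to 3 as arrays were left out. Over 3178 values of 98 member differences under the alternatives 2970 kept direction and side of the threshold, 8 newly passed and 200 changed sign, none of them passing in either setting. Sign changes reached differences of at most 0.69. Arrays without detection calls give no bound for the dim Ccr9, Itgb1 and Itga4 probe sets.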
